A study of Mus musculus with 4 samples.

Results

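The 10 genes of fat cell formation and lipid storage described here were followed in cocultures of mouse fibroblasts, with and without Lpar1, and mast cells. They are Pparg, Cebpa, Cebpb, Cebpd, Fabp4, Plin1, Plin2, Lpl, Dgat2 and Adipoq. They were taken by symbol from the 29675 genes named on the array, and 11 probes read them, 1 for each gene and 2 for Lpl. The fibroblasts were Swiss 3T3, a mouse line, with intact Lpar1 (Lpar1+/+, WT) or without it (Lpar1-/-, KO). The product of Lpar1 is a cell surface receptor whose ligand is lysophosphatidic acid, a lipid messenger. The KO cells were made with CRISPR/Cas9 and a guide next to exon 3, followed by cloning of single cells, so a KO minus WT difference also compares a clone with its parent line. Both genotypes were cocultured with WT bone marrow-derived mast cells and taken at 0 h or 24 h, with 100 ng/ml of SCF, the growth factor of mast cells, in the medium. What the 0 h cultures held is not given in the labels, which name 2 ways of separating the cells after coculture without saying which served here. Mast cell markers were bright on both 0 h arrays, as given below, so levels there cannot be assigned to fibroblasts alone. Each of the 4 groups is 1 array of RNA pooled from 3 samples, so there is no replicate, no test and no p-value, and every difference describes these arrays.

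In the textbook order of adipogenesis, C/EBP beta and C/EBP delta (Cebpb, Cebpd) are induced early and switch on PPAR gamma (Pparg) and C/EBP alpha (Cebpa). These last factors sustain each other and turn on the genes of the fat cell. Among those, Lpl encodes lipoprotein lipase, which frees fatty acids from circulating triglyceride, and Fabp4 a carrier of fatty acids inside the cell. Dgat2 encodes an enzyme of the last step of triglyceride synthesis, and Plin1 and Plin2 encode coat proteins of the lipid droplet. Adipoq encodes adiponectin, a hormone of mature fat cells. Swiss 3T3 is also the parent of 3T3-L1, the line in which much of this programme was worked out.

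Probes that carry differences described here are shown first, because each value is the signal of 1 such oligonucleotide of 60 bases. Positions are on mouse build mm9 and in the listed transcript, both as the array files give them. The Lpl probe called probe 2 below, shown whole, begins at transcript base 1340, and its 60 bases lie on chr8:71425050-71425109. For the others the first 30 bases are shown, in lower case throughout since no base is singled out.
Lpl probe 2: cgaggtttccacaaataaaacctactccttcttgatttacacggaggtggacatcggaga
Lpl probe 1: gaacaccaacccacatgcaaaaccccacaa
Fabp4: aagaggcctggatggaaatttgcatcaaac
Pparg: gcaggaaagtcccacccgctgacaacgtgt
Cebpd: gacatttccgacagacttttgtagataaga
Lpl probe 1, the brighter of the pair, begins at base 3484 of the same transcript (chr8:71430267-71430326, plus strand). The Fabp4 probe lies on chr3:10204452-10204511, on the minus strand. The Pparg probe lies on chr6:115440213-115440272 and the Cebpd probe on chr16:15888459-15888518, both on the plus strand. All of these positions are exonic in the sense that the probe matches a place in the spliced transcript. No annotation of this build was used here, so coding and untranslated parts are not told apart.

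Levels are given as normalized log2 signal, where 0 is the 75th percentile of that array, and levels of different probes are not set against each other. A gene is measured in a difference when its probe is well above background on every array of that difference, and it is called higher or lower at 2-fold or more (1 on the log2 scale). SE is the error that the scanner software gives for a spot, carried into the difference, and it covers neither culture nor labelling. For bright probes such as those of Cebpb and Cebpd it was 0.144 on every array, so it does not measure a spread among these spots. Between 62.1% and 72.7% of spots were well above background, and none was saturated. The Lpar1 probe read −3.20 in WT and −3.43 in KO at 0 h, and −3.15 and −3.61 at 24 h. Where this probe lies with respect to the cut was not examined, and it therefore checks nothing about genotype.

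Markers of mast cells and other leukocytes differed strongly between the 0 h and 24 h arrays. Of 20 mast cell markers, 19 (WT) and 20 (KO) were well above background at 0 h, against 14 and 13 at 24 h, where Ms4a2, Gata1, Tpsab1 and Ms4a3 were not. The log2 of their summed signal was 8.95 and 9.42 at 0 h and 6.31 and 6.64 at 24 h, and without Cd63, a membrane protein of many cell types that read 6.13 to 6.37 on all arrays, it was 8.72, 9.26, 0.53 and 4.08. The last value is mostly Il1rl1, which read 3.86 on KO 24 h. The 16 leukocyte markers summed to 6.37 and 7.39 at 0 h and −0.53 and −0.47 at 24 h. The 12 macrophage markers, listed because macrophages also use Pparg, Fabp4, Plin2 and Lpl, summed to between 1.67 and 2.28 on all arrays, with C1qc not well above background on any. Single macrophage markers differed in opposite directions over time: Adgre1 was at least 26.7-fold lower at 24 h in WT and differed by −4.56 in KO, Cd68 by −1.48 and −1.92, and Cd14 by 1.54 and 1.93. Mrc1 was 2.99 higher in KO at 24 h. The 21 fibroblast markers had medians of 2.61 in WT and 1.85 in KO at 0 h, and 3.05 and 2.96 at 24 h, with Thy1 at −7.02, 3.73, −7.41 (not well above background) and 4.12 and Lum not well above background on 3 arrays. In bulk RNA, fewer cells of a type and less RNA per cell cannot be told apart. The part of these differences in the results below was not tested. For members, scaling each array on the fibroblast markers is given where it ends a call. List genes are given without that scaling, so whether their calls hold under it is not shown. That scaling moved every gene by −0.44 (24 h minus 0 h in WT), −1.11 (24 h minus 0 h in KO), 0.76 (KO minus WT at 0 h) and 0.09 (KO minus WT at 24 h). These shifts set the marker medians of the arrays equal. The median difference of single measured markers was 0.49, 0.73, −0.51 and −0.46 in the same order. The scaling between genotypes at 24 h therefore does not remove the typical marker difference.

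Markers of mature fat cells were dim on every array, Plin4 excepted. Of 14 mature adipocyte markers, Plin1 and Adipoq among them, 10 were well above background on each of WT 0 h, KO 0 h and WT 24 h and 5 on KO 24 h, with medians between −7.37 and −5.55, close to the dimmest readable signals (−7.36 to −6.16). Lep and Cidec, which encode leptin and a droplet fusion protein of fat cells, and Ucp1, the uncoupling protein of brown fat, were not well above background on any. Plin4, a droplet coat protein, read −2.13 in WT and −3.78 in KO at 0 h, and −0.09 and −2.51 at 24 h.

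**Figure D1:**
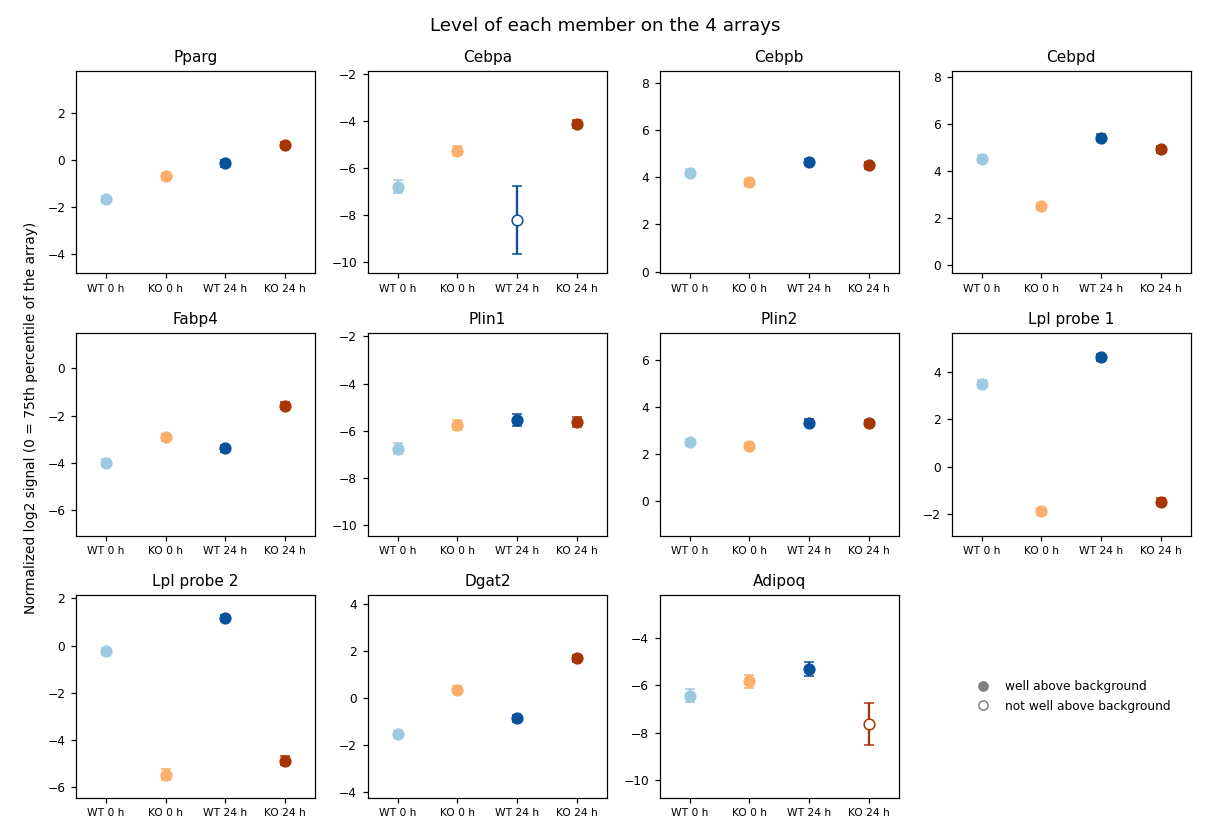
Normalized log2 signal of the 11 probes of the 10 genes on the 4 arrays (1 array per group, no replicates), with bars for the SE of the spot signal and open circles where a probe was not well above background. Panels differ in their centre but share the same height in log2 units. Lpl is low on both KO arrays at both probes, while Dgat2 and Fabp4 are highest on KO 24 h.

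Among the regulators, Pparg had a simple order. It read −1.67 in WT and −0.70 in KO at 0 h, and −0.15 and 0.63 at 24 h, so both 24 h arrays lay above both 0 h arrays, and KO above WT at each time. The Pparg probe is printed 10 times on the array, which gives it a technical check that the other members lack. On WT 0 h the 10 spots ran from −1.79 to −1.55, on KO 0 h from −0.83 to −0.56, on WT 24 h from −0.33 to −0.02, and on KO 24 h from 0.45 to 0.77. The spots of no array overlapped those of another, and their SD was 0.08 to 0.10. Spots of 1 array share the RNA and the labelling, so this spread shows the reading of the probe and not of the culture. Pparg was higher at 24 h by 1.52 ± 0.20 (SE) in WT, a 2.87-fold difference, and by 1.33 ± 0.20 in KO, 2.51-fold. KO exceeded WT by 0.98 ± 0.20 at 0 h and 0.78 ± 0.20 at 24 h, both short of 2-fold. The difference at 0 h passed 2-fold with quantile normalization (1.02) and fibroblast scaling (1.74). The call over time in WT was kept with scaling on fibroblast markers (1.09), whereas that in KO was not (0.21).

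**Figure D2:**
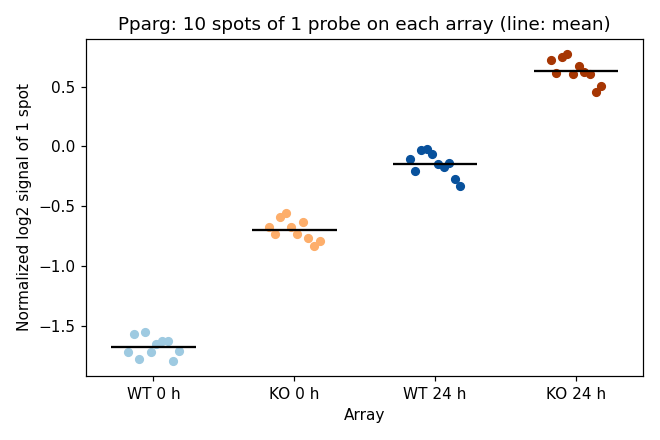
Normalized log2 signal of each of the 10 spots of the Pparg probe on each array, with a line at their mean. The spots form 4 separate bands, lowest on WT 0 h and highest on KO 24 h, and the points of a band are repeats within 1 array, not biological replicates.

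Cebpa, the partner of Pparg in the late programme, was dim everywhere. It read −6.79 in WT and −5.27 in KO at 0 h, and −8.23 in WT, where it was not well above background, and −4.13 in KO at 24 h. Both KO arrays thus lay above both WT arrays. KO exceeded WT by 1.53 ± 0.33 at 0 h (2.88-fold) and by at least 4.09-fold at 24 h, a bound set by the dimmest readable signal of the WT 24 h array. Of measured genes as dim as this in mean level (at or below −4.49), 16.8% were called higher in KO at 0 h. Among brighter ones the share was 6.56%. Within KO Cebpa was 1.14 ± 0.25 higher at 24 h. With normexp background correction, which compresses dim signals, the difference at 0 h was 0.28 and that over time in KO 0.51, so neither passed 2-fold, and with fibroblast scaling the latter was 0.02.

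The early factors behaved differently from each other. Cebpb was bright and nearly level, at 4.20 in WT and 3.79 in KO at 0 h, and 4.65 and 4.51 at 24 h, and no difference reached 2-fold in any direction. Cebpd read 4.52, 2.49, 5.41 and 4.91 on the same arrays, with KO 0 h standing below the other 3. KO minus WT for Cebpd was −2.03 ± 0.20 at 0 h, a 4.08-fold lower signal, and −0.49 ± 0.20 at 24 h. From 0 h to 24 h it differed by 2.42 ± 0.20 in KO (5.35-fold) and by 0.88 ± 0.20 in WT (1.84-fold). Its KO difference over time ranked 35 from the highest of 17861 measured genes. Of the 2 genotype differences, only the one at 0 h passed 2-fold, and the change in KO exceeded that in WT by 1.54 ± 0.29. The KO 0 h array also had the lowest fibroblast markers of the 4 (median 1.85). With fibroblast scaling Cebpd was still lower in KO at 0 h (−1.27) and higher over time in KO (1.31), and the difference of changes was 0.86.

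Lpl separated the genotypes more than any other member. Its brighter probe read 3.51 in WT and −1.90 in KO at 0 h, and 4.63 and −1.49 at 24 h, so both WT arrays were high and both KO arrays low. The genotypes differed by −5.41 ± 0.20 (KO minus WT) at 0 h, a 42.5-fold lower signal, and −6.13 ± 0.20 at 24 h, 69.8-fold lower. Lpl ranked 8 from the lowest of 20317 measured genes at 0 h and 10 from the lowest of 17291 at 24 h. The second probe, which lies in another stretch of the transcript, read −0.24, −5.49, 1.17 and −4.89 and gave 37.8-fold and 66.8-fold. The direction and the call were the same with quantile normalization, normexp, fibroblast scaling and the mean of probes. The log2 differences then lay between −5.63 and −4.65 at 0 h and between −6.09 and −5.74 at 24 h. Lpl was still readable in KO, where both probes were well above background. Over time it was 1.12 ± 0.20 higher in WT at the first probe and 1.41 ± 0.20 at the second, and 0.41 ± 0.20 and 0.59 ± 0.30 in KO, where fibroblast scaling turned the sign of the first (−0.71). The WT call was lost with quantile normalization (0.87), normexp (0.85) and fibroblast scaling (0.69).

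Dgat2 ran the other way between genotypes. It read −1.54 in WT and 0.36 in KO at 0 h, and −0.85 and 1.69 at 24 h, with both KO arrays above both WT arrays. KO exceeded WT by 1.90 ± 0.20 at 0 h (3.72-fold) and 2.53 ± 0.20 at 24 h (5.78-fold), placing Dgat2 at rank 214 from the highest of 20317 and 181 of 17291. Both calls held with quantile normalization, normexp and fibroblast scaling, from 1.81 to 2.66 at 0 h and from 2.32 to 2.62 at 24 h. The other settings leave the value of a gene with 1 probe as it was. The gene was 0.69 ± 0.20 higher at 24 h in WT and 1.33 ± 0.20 in KO, the latter 0.22 with fibroblast scaling. Dgat1, the other enzyme of this step and unrelated in sequence, read −0.61, −1.02, 0.01 and −0.49, and KO minus WT was −0.41 and −0.50.

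Fabp4, a classic target of PPAR gamma, followed the direction of Dgat2. Its level was −4.01 in WT and −2.91 in KO at 0 h, and −3.39 and −1.58 at 24 h, and again no WT array reached a KO array. KO exceeded WT by 1.09 ± 0.21 at 0 h (2.13-fold) and 1.81 ± 0.21 at 24 h (3.51-fold). The first of these was 0.55 with normexp, and the second passed 2-fold with quantile normalization, normexp and fibroblast scaling (1.28 to 1.90). The difference over time was 0.62 ± 0.21 in WT and 1.33 ± 0.21 in KO, the latter 0.22 with fibroblast scaling. Fabp5, its relative in skin and macrophages, read 5.51, 5.72, 5.89 and 6.54, with no 2-fold difference.

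Of the droplet coats, Plin2, which covers droplets in most cell types, was bright and did not separate the genotypes. It read 2.51 in WT and 2.34 in KO at 0 h, and 3.34 and 3.32 at 24 h. The genotypes differed by −0.17 ± 0.20 (0 h) and −0.02 ± 0.20 (24 h), KO minus WT, which is within the SE at both times, though 0.60 at 0 h with fibroblast scaling. Over time Plin2 differed by 0.83 ± 0.20 in WT and 0.98 ± 0.20 in KO, just short of 2-fold in the latter (1.97-fold), where fibroblast scaling turned the sign (−0.13).

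Plin1, the coat of fat cell droplets, and Adipoq stayed near the limit of reading. Plin1 read −6.76 in WT and −5.77 in KO at 0 h, and −5.54 and −5.64 at 24 h, so WT 0 h was the low array. Adipoq read −6.44, −5.82, −5.30 and −7.64, the last not well above background. At 24 h minus 0 h in WT both were called higher, by 1.22 ± 0.34 and 1.14 ± 0.40. Of measured genes whose mean level was at or below −4.49, the median over all genes on the array, 50.3% were called higher in that same difference, against 4.82% of brighter ones. With normexp the Plin1 and Adipoq differences were 0.07 and 0.08. WT 24 h exceeded KO 24 h by at least 2.62-fold for Adipoq, in a comparison where 38% of measured dim genes were called lower in KO.

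**Figure D3:**
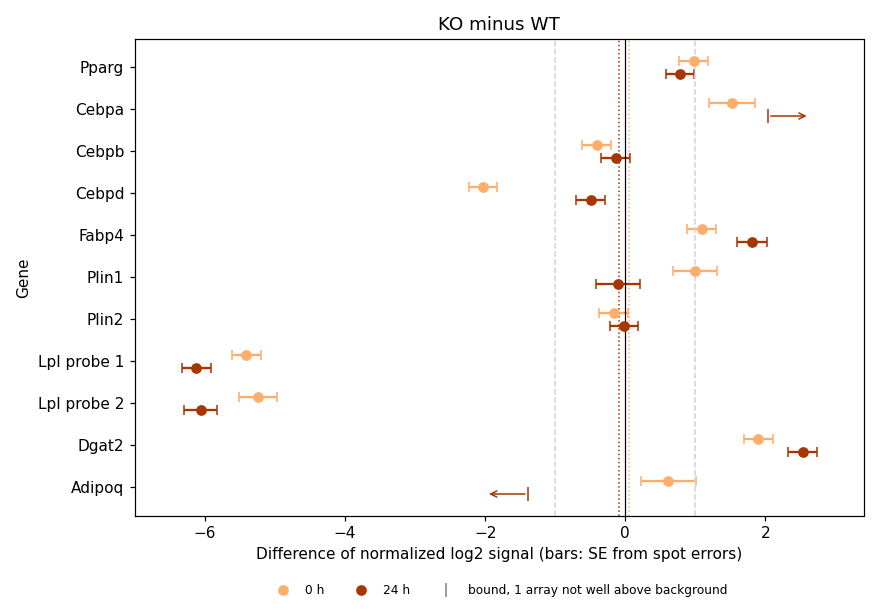
KO minus WT difference of normalized log2 signal for each probe at 0 h and 24 h, with bars for the SE from spot errors, dashed lines at 2-fold and dotted lines at the median of all measured genes. Arrows start at the bound where the probe was not well above background on 1 array. Lpl lies between −6.13 and −5.24 at its probes, and Dgat2 lies at 1.90 and 2.53.

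Seen as a group between the genotypes at 0 h, 3 of the 10 members were called higher in KO (Dgat2, Cebpa and Fabp4) and 2 lower (Lpl and Cebpd). All 10 were measured, and their median was 0.80 against 0.06 over all genes, though 0.05 with normexp and −0.17 with the stricter filter, which leaves out the dim members. Of all 20317 genes measured there, 9.34% were called higher and 4.07% lower. Pparg (1.97-fold) and Plin1 (1.99-fold) lay just inside the 2-fold limit. Among measured dim genes, such as Cebpa and Plin1, 16.8% were called higher, against 6.56% of brighter ones. The count of higher members was 1 with normexp, where Dgat2 remained, and 6 with fibroblast scaling. Mast cell markers moved with the higher members here, since 9 of 19 measured ones were called higher in KO and none lower (median 0.95), and 8 of 20 fibroblast markers were lower and 2 higher.

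At 24 h, 8 members were measured, of which 2 were called higher in KO (Dgat2 and Fabp4) and 1 lower (Lpl). Over all 17291 measured genes, 5.76% were called higher and 12.3% lower. The members' median was −0.06 and that of all genes −0.09, and with quantile normalization these were 0.35 and −0.02. Of the 2 members left out, Cebpa was brighter on KO 24 h and Adipoq on WT 24 h, by the bounds given above. Of 12 mast cell markers measured on these arrays, 3 were called higher in KO (Il1rl1 by 6.11, Gata2 by 2.22, and Tph1) and Hdc lower (−1.57), and fibroblast markers had 1 higher and 6 lower of 18. Over all genes, 31.9% of the calls were higher ones, against 46.0% with quantile normalization and 50.3% with normexp. The share at 0 h was 69.6%, against 58.3% and 59.3%, and 96.8% with fibroblast scaling.

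Over the 24 h in WT, 4 of 9 measured members were called higher (Pparg, Plin1, Adipoq and Lpl) and none lower, with a median of 0.88. Across all 19197 measured genes 15.8% were called higher and 5.57% lower, around a median of 0.28. All 9 differences were above 0, from 0.45 (Cebpb) to 1.52 (Pparg). Pparg alone was called with quantile normalization, with normexp and with fibroblast scaling, and Pparg and Lpl with the stricter filter. Mast cell markers ran opposite to the members, with 13 of 14 measured ones lower at 24 h (median −7.59), and 6 of 19 fibroblast markers were higher and none lower.

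In KO, 5 of 9 measured members were called higher at 24 h (Cebpd, Pparg, Fabp4, Dgat2 and Cebpa) and none lower, with a median of 1.14. Over all 17861 measured genes 9.48% were called higher and 10.9% lower, with 0.23 as the median. Pparg, Fabp4 and Dgat2 had the same difference of 1.33, and Plin1 the lowest, 0.13 ± 0.29. Cebpd alone passed 2-fold with fibroblast scaling. Mast cell markers were again opposite, with 12 of 13 lower (median −7.88), and fibroblast markers had 9 of 19 higher and 3 lower. The share of higher ones among all calls was 73.9% in WT and 46.5% in KO. In WT the share was 64.9% with quantile normalization, 38.8% with normexp and 41.9% with fibroblast scaling. In KO it was 60.8% with quantile normalization and 1.07% with fibroblast scaling.

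**Figure D4:**
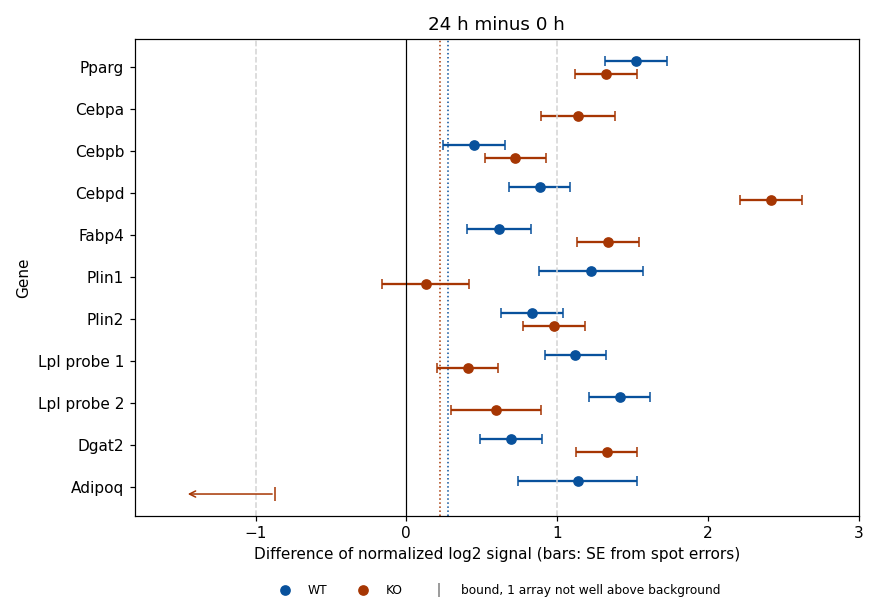
Difference of normalized log2 signal between 24 h and 0 h for each probe in WT and KO, with SE bars, dashed lines at 2-fold and dotted lines at the median of all measured genes. The bound for Adipoq in KO points to a lower signal at 24 h, and Cebpa has no value in WT. Pparg lies at 1.52 and 1.33, and Cebpd is the highest point in KO at 2.42.

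The change over time was set against itself in the 2 genotypes for the 8 members measured on all arrays. Cebpd had a KO change 1.54 ± 0.29 above its WT change, and Plin1 one of −1.10 ± 0.45 relative to WT. Of all 17116 genes measured there, 4.72% were called higher and 13.3% lower, and among dim genes such as Plin1 48.4% were called lower. The remaining 6 members, Pparg (−0.20 ± 0.29), Cebpb (0.27 ± 0.29), Fabp4 (0.72 ± 0.30), Plin2 (0.15 ± 0.29), Lpl (−0.72 ± 0.29) and Dgat2 (0.64 ± 0.29), stayed inside 2-fold. For Plin1 the sign turned with quantile normalization (0.23) and with normexp (0.17). Higher calls were 26.2% of all calls here, against 45.6% with quantile normalization, 41.5% with normexp and 3.08% with fibroblast scaling.

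Other genes of the same pathways were read from 8 lists grouped by role, which place the members among their neighbours. Of all measured genes, 9.34% were called higher and 4.07% lower in KO at 0 h, and 5.76% and 12.3% at 24 h. Over time the shares were 15.8% and 5.57% in WT and 9.48% and 10.9% in KO. The lists are small, and no list was tested against these shares. List genes are given without fibroblast scaling, which moved every gene by −0.44 over time in WT and −1.11 in KO. A list gene just past 2-fold over time falls short of it with that scaling. Around Lpl, the list of fatty acid uptake and activation had no member higher and 2 of 15 lower in KO at 0 h, and 1 of 14 higher and 1 lower at 24 h. The gene lower at both times was Pltp, the phospholipid transfer protein, at −2.44 ± 0.21 and −2.70 ± 0.21. Angptl4, an inhibitor of lipoprotein lipase, was lower at 0 h only (−1.09 and −0.15). Lmf1, which helps the lipase fold, had KO minus WT differences of −0.08 and −0.14, and Vldlr, a receptor for triglyceride-rich particles, −0.13 and −0.16. Fabp3, the carrier of heart and muscle, was the gene called higher at 24 h (1.39). Over time 4 of 14 of these genes were called higher in WT and 4 of 15 in KO, none lower, and Acsl1, which activates fatty acids, was so in both (1.29 and 1.24), as were Vldlr and Lmf1.

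Around Dgat2, the list of triglyceride synthesis was mostly level. In KO at 24 h none of 12 measured genes was called in either direction (median −0.01), and at 0 h 1 was higher and 2 lower. Lpin3, one of the lipins, which make diacylglycerol, was the higher one at 0 h (2.20) and was at least 3.67-fold higher in KO at 24 h. It was dim, and 16.8% of measured dim genes were called higher in KO at 0 h. Gpd1, which supplies glycerol phosphate, had KO minus WT differences of −1.48 at 0 h and −0.81 at 24 h. For Gpat3, an enzyme of the first step, they were −1.25 and −0.92. In time, none of 12 genes was called in WT and 1 of 12 in KO, Agpat3 (1.19). Fatty acid synthesis genes had 1 of 15 higher (Acss2, 1.05) and none lower in KO at 0 h, and none higher and 2 lower at 24 h (Acacb, −1.65, and Fads2, −1.05). Fasn, the fatty acid synthase, was level between genotypes at −0.08 and −0.07. Over time this list had 3 of 15 higher in WT (Acacb, Scd2 and Fads1, 1.03 to 1.18) and none lower, and 2 higher in KO (Elovl6, 1.70, and Acaca, 1.14) and 2 lower (Acss2 and Mlxipl).

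Of the other droplet genes, Plin4 had KO minus WT differences of −1.65 and −2.42 at the 2 times, in the direction of Lpl. The list held 1 higher (Hsd17b11, 1.12) and 2 lower (Plin4 and Cav1) of 10 measured at 0 h, and none higher and Plin4 alone lower of 9 at 24 h. Plin3 was level between genotypes (0.21 and −0.20) and higher over time by 1.36 in WT and 0.95 in KO. Among lipolysis genes, Mgll, the monoglyceride lipase, was higher in KO at both times (1.07 and 1.05), and 1 of 7 was lower at 24 h. That was G0s2 (−1.09), a dim gene in a comparison where 38% of measured dim genes were called lower in KO. G0s2 encodes an inhibitor of the main triglyceride lipase. That lipase, Pnpla2, differed by 0.16 and −0.46. Its activator Abhd5 differed by 0.13 at 24 h between genotypes and was 1.12 higher over time in KO. The secreted proteins were largely dim, with 1 of 6 called lower in KO at 0 h (Apln, −1.45) and none of 6 in either direction at 24 h, and Rarres2, which encodes chemerin, was at least 5.81-fold and 38.5-fold lower in KO.

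Among the factors upstream of the members, those that promote adipogenesis had 1 of 15 higher and 1 lower in KO at 0 h, and 1 of 14 higher and 3 lower at 24 h. Nr1h3, which encodes the sterol receptor LXR alpha, was lower in KO at both times (−1.68 and −1.47). Klf5 was 1.80 higher in KO at 24 h, Stat5a −1.41 and Ppargc1b −1.16 lower. Ppargc1b was dim, and 38% of measured dim genes were called lower in that difference. Rxra, the DNA-binding partner of PPAR gamma, differed by −0.38 and 0.10 between genotypes and was higher over time by 1.08 in WT and 1.57 in KO. Zfp423, which primes preadipocytes, was at least 3.33-fold and 10.7-fold lower in KO, and Klf15 at least 5.73-fold lower at 24 h. Bmp4 went the other way, at least 3.48-fold and 4.27-fold higher in KO. Ppargc1a, the gene called higher at 0 h (1.45), was at least 2.61-fold higher in KO at 24 h. It too was dim, and 16.8% of measured dim genes were called higher in KO at 0 h. The restrainers had 2 of 20 higher in KO and none lower at 0 h, and 3 of 20 higher and 3 lower at 24 h. Dlk1, the preadipocyte factor that holds back differentiation, read 2.98, 5.58, 3.49 and 6.38 in the same order of arrays, a KO excess of 2.59 ± 0.20 and 2.88 ± 0.20. Gata2 was higher in KO by 1.18 and 2.22, and as a mast cell marker too it was lower over time by −5.34 in WT and −4.30 in KO. Hes1 (−1.49), Foxo1 (−1.25) and Ddit3 (−1.15) were the lower ones at 24 h.

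**Figure D5:**
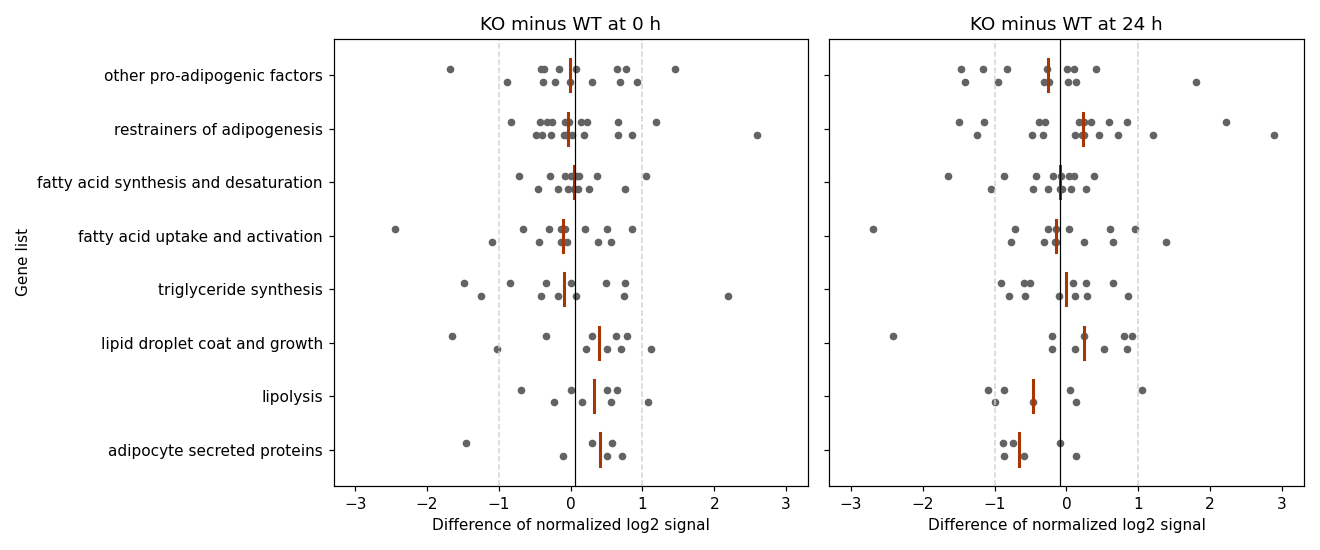
KO minus WT difference of normalized log2 signal at 0 h and 24 h for the measured genes of 8 lists, 1 point per gene, with a coloured line at the list's median, dashed lines at 2-fold and a black line at the median of all measured genes. Genes that were not well above background on both arrays are left out. List medians stay between −0.67 and 0.40, and single genes such as Dlk1 and Pltp lie past 2-fold in both panels.

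Sequence upstream of the start sites was available for 6 of the 10 members in 8 windows of 250 bases (RefSeq, GRCm38.p6), and 3 of these belong to Pparg. They are printed because the Pparg probe is listed for several transcripts of the gene, so the levels above cannot say which start was in use. Capitals mark CCAAT, the box bound by several factors, and AGGTCA, the half-site of nuclear receptors, on either strand.
Pparg window 1: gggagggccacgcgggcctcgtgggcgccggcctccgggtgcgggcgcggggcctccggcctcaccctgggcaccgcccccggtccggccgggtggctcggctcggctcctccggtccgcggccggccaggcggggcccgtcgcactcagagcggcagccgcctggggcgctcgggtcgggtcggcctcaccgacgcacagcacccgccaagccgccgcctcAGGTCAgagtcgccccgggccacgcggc
Pparg window 2: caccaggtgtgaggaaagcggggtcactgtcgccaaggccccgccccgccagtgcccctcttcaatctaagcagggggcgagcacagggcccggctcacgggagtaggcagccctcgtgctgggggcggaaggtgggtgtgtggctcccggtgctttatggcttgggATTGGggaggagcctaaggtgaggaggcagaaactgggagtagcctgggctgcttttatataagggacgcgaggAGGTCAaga
Pparg window 3: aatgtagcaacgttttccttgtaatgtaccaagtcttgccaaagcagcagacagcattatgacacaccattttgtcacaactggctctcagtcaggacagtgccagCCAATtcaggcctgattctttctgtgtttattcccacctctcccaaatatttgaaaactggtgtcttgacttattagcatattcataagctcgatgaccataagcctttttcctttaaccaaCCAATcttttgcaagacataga
They lie on the plus strand at chr6:115360894-115361143, chr6:115362099-115362348 and chr6:115421816-115422065. AGGTCA stood once in windows 1 and 2, and CCAAT once in window 2 and 2 times in window 3. The other windows held CCAAT 3 times for Adipoq and once for Plin2, AGGTCA once for Plin2, and the C/EBP half-site TTGCG once for Cebpa. Those of Cebpb and Plin1 held none of the motifs searched. The E-box CACGTG stood in no member's window. Of all 32851 windows of this length, 33.8% held CCAAT, 14% AGGTCA, 14.5% TTGCG and 6.02% CACGTG, on either strand. A match is a run of letters and not a shown binding site.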

How the data were processed

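The 4 1-colour (Cy3) Agilent arrays, all on 1 slide, each took 200 ng of RNA into labelling. Per the file headers, the authors extracted spot intensity with Agilent Feature Extraction 12.1.1.1, which subtracted a spatially fitted background and detrended each array. In the deposited value table each entry is a ratio, the processed intensity over that array's 75th percentile (column medians 0.0442, 0.0483, 0.0452 and 0.0334, WT before KO and 0 h before 24 h), and served as an alternative. Its scale, centring and direction are known from this match.

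Control spots and outlier spots were left out, the deposited intensity was taken to log2, and the 75th percentile of 43020 non-control spots was subtracted. Spots of a probe were averaged, and their SE was not reduced for the number of spots. Of 39429 probes, 29110 were named through accessions (RefSeq, GRCm38.p6), and 10319 kept the file's name. The probe of highest mean signal stood for a gene. For an at-least fold, the dim side is the lowest signal well above background on that array, or the probe's measured one where that is higher. The calculation of differences and their SE was tested on simulated data. The changed genes there were brighter ones, and normalization, the background filter and at-least folds were not covered.

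The members and the lists were chosen with earlier results of these data known. All members and up to 3 genes at each end of a list were named, fewer where space required, with genes whose role bears on a member chosen after their values were seen (Dgat1, Fabp5, Lmf1, Vldlr, Fasn, Pnpla2, Abhd5, Rxra, Plin3). Alternatives were quantile normalization, normexp (offset 50) with quantile normalization (limma 3.58.1), the value table, no filter and a stricter one (mean level above the median over all genes) on dim probes, the mean of probes, and scaling on fibroblast markers. Of these, the value table repeats the main scaling and the filters change only which genes are counted. Among members, the mean of probes can move Lpl alone. The number of arrays limits the precision. Sequences are printed for some of the probes only.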

Additional observations from a re-analysis of the deposited data

How the results depend on the processing

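No paired analysis was possible because each group holds 1 array. For the members called higher at 24 h in WT, the count was 1 with quantile normalization, with normexp and with fibroblast scaling, and 2 with the stricter filter, against 4. With no filter 1 member, Cebpa, was lower. In KO over time the count of higher members was 1 with fibroblast scaling, against 5, and with no filter 1, Adipoq, was lower. Between genotypes at 0 h the higher count was 1 with normexp and 6 with fibroblast scaling, against 3. At 24 h the lower count was 2 with no filter, against 1. For the difference of changes, members called lower numbered 0 with quantile normalization, normexp and the stricter filter, and 2 with no filter and with fibroblast scaling, against 1. Members called higher there numbered 2 with no filter and 0 with fibroblast scaling. The signs of Plin1 turned in that difference, to 0.23 with quantile normalization and 0.17 with normexp. The other counts stayed within 1.5 times. Of 299 single differences under alternatives, 223 moved by less than their SE, 74 by more and the 2 of Plin1 just named were called differences that changed sign. All 74 came from quantile normalization, normexp or fibroblast scaling. The value table, the filters and, Lpl apart, the mean of probes repeat the main value by design, so the 223 overstate the stability. Differences under 2-fold changed sign too, those of Plin1 between genotypes at 24 h with quantile normalization (0.78) and normexp (0.25), and with fibroblast scaling some of Cebpb, Plin1, Plin2, Lpl and Dgat2. The cause of these shifts was not tested, except that the filters change which genes are counted. Dim signal limits Cebpa, Plin1 and Adipoq.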

Other observations

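The genes whose levels on the 4 arrays were most like those of a member are given as a description, by the distance between centred log2 levels over 17116 genes measured on every array. With only 4 arrays such likeness is common, and nothing is said about shared function. For Lpl the nearest were Fbxl7 (0.45), Gprin3 (0.79) and Pcolce2 (0.88), at distances larger than for the other 5 members given here. Members whose levels spanned less than 2-fold over the arrays (Cebpb and Plin2), or that were not measured on every array, have none. Fbxl7, which encodes an F-box protein, read 0.45 in WT and −5.17 in KO at 0 h, and 1.02 and −4.56 at 24 h, and Pcolce2, an enhancer of procollagen processing, read 1.65, −4.07, 1.60 and −3.61. For Pparg the nearest were S1pr3 (0.15), a receptor for sphingosine 1-phosphate, Cdkn2a (0.19), a cell cycle inhibitor, and 3110023J12Rik (0.20). S1pr3 read −0.89, 0.19, 0.61 and 1.31 in the order of arrays given above.

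For Cebpd they were CJ221686 (0.19), Dclk1 (0.29) and Tnfaip6 (0.30), and for Dgat2 Gstm5 (0.14), Begain (0.15) and Abca3 (0.20), a lipid transporter. Tnfaip6, a hyaluronan-binding protein of inflammation, read −2.67 in WT and −4.34 in KO at 0 h, and −1.48 and −2.20 at 24 h, with KO 0 h the low array as for Cebpd. Abca3 read −2.47, −0.38, −1.54 and 1.01. For Fabp4 the nearest were Cavin4 (0.12), Lrfn3 (0.16) and C130040N14Rik (0.16). For Plin1, close to the limit of reading, they were Chst3 (0.07), Klhl30 (0.10) and Treml1 (0.10).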
